A study of Rattus norvegicus with 18 samples.

Results

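The genes described here are the 8 rat inhibitors of cyclin-dependent kinases (CDKs): Cdkn1a, Cdkn1b and Cdkn1c of the Cip/Kip family, Cdkn2a, Cdkn2b, Cdkn2c and Cdkn2d of the INK4 family, and Cdkn3. They were chosen by name, and each was read on the transcript cluster (the array's probe set for a transcript) that the platform's annotation pairs with that symbol alone. The annotation names 1 such cluster each for Cdkn1b, Cdkn1c, Cdkn2b and Cdkn2c, 4 of the 8 genes and 4 of the 36685 clusters on the array. For Cdkn3 the only cluster name used here comes from a supplementary list that the study made of clusters past its threshold in at least 1 comparison of these arrays, so its values are described and not tested. Cdkn1a, Cdkn2a and Cdkn2d were not analysed here, because the annotation used here names no cluster for them.

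The values come from 18 arrays of neonatal rat ventricular myocytes (MC), isolated from Wistar rats 1 to 3 days old and kept in culture for 3 days. In the stretch experiment, on collagen-coated flexible membranes, the groups were static cells (control), cells under biaxial cyclic stretch for 24 hours (ST), and ST cells given 10 µM KB-R7934, the labels' name for an NCX (sodium-calcium exchanger) inhibitor (ST with NCXI). The labels give the strain as 20%, which the study's methods state differently. In the tachycardia experiment, on gelatin-coated dishes, the groups were cells paced for 3 hours at 1 Hz (control), at 8 Hz (TC), and at 8 Hz with 10 µM KB-R7934 (TC with NCXI). Each group held 3 biological replicates, and for each of them 2 to 6 technical replicates were pooled before hybridization. All cultures received BrdU against the growth of other cells, and the study describes them as enriched in myocytes and not pure. No array came from cells that received the inhibitor without ST or TC.

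CDK inhibitors set the brake on the cell cycle. Cip/Kip proteins bind many cyclin-CDK complexes, INK4 proteins bind the monomeric kinases CDK4 and CDK6 and keep them from D-type cyclins, and the protein of Cdkn3 is a phosphatase that removes the activating phosphate of CDK2 and CDK1. Rodent ventricular myocytes leave the cell cycle in the first days after birth, and Cdkn1b (p27) and Cdkn1c (p57) are among the inhibitors known from that period in the mouse heart. Cdkn3 is unlike the classical inhibitors in that its transcript is known to be most abundant in dividing cells.

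The sequences below are shown because Cdkn2c and Cdkn3 varied across the arrays with genes of S phase and mitosis and Cdkn1b ran against them, and promoters of such genes often hold known sequence elements. They are the 250 bases before the annotated start, 5′ to 3′ on the gene's strand, from RefSeq's GRCr8 assembly, in which 7 of the 8 genes matched a promoter entry. Capitals mark CCAAT (bound by NF-Y), the CHR element of late cell cycle genes (TTTGAA or TTCGAA) and E2F words (TTTGGCGC, TTTCCCGC or TTTCGCGC), searched on both strands. None of these words lies within another.
Cdkn3 (chr15:22502136-22502385, plus strand): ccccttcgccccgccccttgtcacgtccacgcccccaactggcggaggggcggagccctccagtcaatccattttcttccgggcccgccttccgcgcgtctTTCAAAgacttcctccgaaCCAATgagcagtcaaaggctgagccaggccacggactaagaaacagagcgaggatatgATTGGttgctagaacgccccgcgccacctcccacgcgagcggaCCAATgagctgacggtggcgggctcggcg
Cdkn2c (chr5:129644892-129645141, minus strand): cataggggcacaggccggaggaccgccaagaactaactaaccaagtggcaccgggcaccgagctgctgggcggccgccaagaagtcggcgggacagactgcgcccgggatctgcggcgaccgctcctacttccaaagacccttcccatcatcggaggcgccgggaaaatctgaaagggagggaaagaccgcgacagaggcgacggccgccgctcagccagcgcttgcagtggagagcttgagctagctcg
Cdkn1b (chr4:169491254-169491503, plus strand): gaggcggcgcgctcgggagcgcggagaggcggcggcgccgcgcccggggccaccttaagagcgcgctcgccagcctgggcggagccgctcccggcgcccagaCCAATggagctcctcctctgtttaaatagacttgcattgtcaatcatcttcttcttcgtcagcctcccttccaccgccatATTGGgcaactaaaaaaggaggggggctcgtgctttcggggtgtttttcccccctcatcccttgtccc
The Cdkn3 window held 3 CCAAT words, at 130, 72 and 29 bases before the start, and 1 CHR word at 149 bases. The Cdkn1b window held 2 CCAAT words, at 148 and 68 bases, and no CHR word. The Cdkn2c window held none of the 3 elements. The Cdkn2b window, not printed here, held 1 CHR word at 216 bases and no CCAAT or E2F word. A CHR word was therefore not particular to Cdkn3 among the inhibitors. Across the 27457 promoters of the table, 34.3% held a CCAAT word, 17.3% a CHR word and 1.49% an E2F word in the same 250 bases. Among the promoters of 21 S phase and mitosis genes found in the table, 15 held CCAAT, 8 held CHR and 5 held an E2F word. A match is a stretch of letters and was not read as a bound site.

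Values are log2 signals as deposited, and differences carry the standard error (SE), 95% confidence interval and p-value that limma gave over the 9 arrays of each experiment, with Benjamini-Hochberg adjustment over all 36685 clusters. A cluster was counted at the study threshold when its unadjusted limma p was under 0.05 and its change at least 1.2-fold. The medians of the arrays lay between 5.26 and 5.34 and every pair of arrays correlated at a Pearson r of 0.969 to 0.988 over all clusters, so that no library stood apart. Arrays of mixed cultures cannot tell fewer cells of a type from less RNA per cell.

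Cdkn1c, the imprinted Cip/Kip gene that restrains growth of fetal tissues, was the member with the largest difference from control in the stretch experiment, with the means of ST and of ST with NCXI both above it. Its log2 values were 7.33, 6.85 and 6.72 on the static control arrays, 7.38, 7.26 and 7.38 in ST, and 7.76, 7.52 and 7.81 in ST with NCXI. Only ST replicate 2 fell below the highest control array, and the 3 arrays of ST with NCXI lay above all 6 others. ST stood 0.38 above control on the log2 scale (SE 0.16, interval 0.00 to 0.75, limma adjusted p = 0.633). Cdkn1c was thereby the 1 of 4 tested inhibitors at the study threshold in ST, where 7.45% of all clusters were. The ST and control arrays overlapped, and leaving out ST control replicate 3 brought the difference to 0.25 and ended the call. The call was also lost without ST control replicate 2 (0.32), ST replicate 1 (0.36), ST replicate 2 (0.42) or ST replicate 3 (0.36). Paired by replicate number, ST minus control was 0.04, 0.42 and 0.67 for replicates 1, 2 and 3.

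With NCXI, Cdkn1c stood 0.35 above ST alone (SE 0.16, interval −0.02 to 0.72, limma adjusted p = 0.547), which missed the study threshold. The groups did not overlap, as for 15.2% of all clusters in that comparison. Against the static control the difference was 0.73 (SE 0.16, interval 0.36 to 1.1, limma adjusted p = 0.151), or 1.66-fold, with all 3 arrays above all 3 controls. Cdkn1c was 1 of 4 members at the threshold in that comparison, against 10.2% of all clusters, and groups failed to overlap for 16.8% of clusters. At an adjusted p under 0.05 limma counted 0 of the 4 members and 0.164% of clusters. Leaving out single arrays kept the difference between 0.60 and 0.91. The mean of the 7 cardiomyocyte markers measured was 10.85 to 11.36 in control arrays and 11.26 to 11.60 in ST with NCXI. It was higher for 7 of 7 genes (median 0.31), 2 of them at the threshold (4.79% of all clusters), or 0 to 4 without single arrays. The mean of 12 macrophage and leukocyte markers ran from 6.38 to 7.42 in control and from 5.37 to 6.17 in ST with NCXI, with 12 of 12 lower and 8 lower at the threshold (5.38% of all clusters), or 4 without ST control replicate 3 or ST with NCXI replicate 1 or 2. Of 11 fibroblast markers 1 was lower and 1 higher at the threshold, or 2 to 5 in either direction without single arrays. The part of these shifts in the Cdkn1c values was not tested.

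In the tachycardia experiment Cdkn1c gave no difference that limma could tell from the spread. It stood at 7.80, 7.45 and 7.57 at 1 Hz, at 7.98, 7.20 and 7.55 in TC, and at 7.55, 7.58 and 7.79 in TC with NCXI. The 3 groups overlapped, with the highest and the lowest array both in TC. TC differed from control by −0.03 (SE 0.19, interval −0.47 to 0.41) and TC with NCXI from TC by 0.07 (interval −0.38 to 0.51). The Cdkn1c difference of ST from its control exceeded that of TC from its control by 0.41 (SE 0.26, limma over 18 arrays, adjusted p = 0.884). That excess reached the study threshold without ST control replicate 1 (0.59) or without TC replicate 1 (0.61). Duration, culture surface and kind of control differ between the experiments as well as the trigger, so this test cannot separate the triggers from them.

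**Figure D1:**
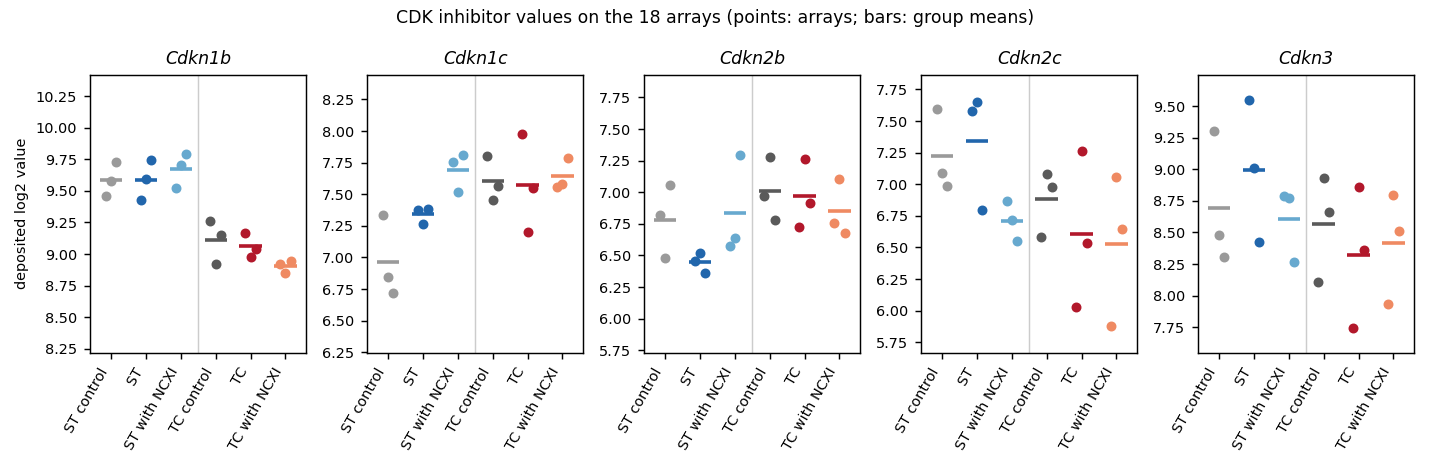
Deposited log2 values (vertical axis, a span of the same width in each panel) of the 5 inhibitors read on the arrays, by group. Points are the 3 arrays of a group and bars their mean, with the stretch experiment left of the line and the tachycardia experiment right of it. The 3 arrays of ST with NCXI lie above the other stretch arrays for Cdkn1c, and all stretch arrays lie above all tachycardia arrays for Cdkn1b. The share of all clusters with either pattern was not counted.

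Cdkn1b, which encodes p27, a Cip/Kip inhibitor controlled largely through protein stability, had the smallest standard errors of the tested members and no difference within an experiment that passed the test. Its log2 values were 9.46, 9.58 and 9.73 in static control, 9.43, 9.60 and 9.75 in ST, and 9.52, 9.70 and 9.79 in ST with NCXI. ST differed from control by 0.00 (SE 0.13, interval −0.29 to 0.29), and ST with NCXI from ST by 0.08 (interval −0.21 to 0.37). Both intervals lie within 0.37 of 0 on the log2 scale. Paired by replicate number, ST minus control was −0.04, 0.02 and 0.02 for replicates 1, 2 and 3. The first interval above also holds the spread that same-numbered arrays share.

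At 1 Hz Cdkn1b stood at 9.26, 8.92 and 9.15, in TC at 9.17, 8.97 and 9.04, and in TC with NCXI at 8.92, 8.85 and 8.95. All 3 arrays of TC with NCXI lay below the 3 TC arrays. These groups did not overlap, in either direction, for 10.4% of clusters. The difference was −0.15 (SE 0.12, limma adjusted p = 0.956). Paired by replicate number, TC with NCXI minus TC was −0.25, −0.12 and −0.09 for replicates 1, 2 and 3. Against 1 Hz the difference was −0.20 (SE 0.12, interval −0.47 to 0.06, limma adjusted p = 0.657), and without TC control replicate 2 it was −0.30 and at the study threshold. Of 12 macrophage and leukocyte markers, 11 had lower means in TC with NCXI than in TC (median −0.53). At the threshold 6 were lower, or 2 to 8 without single arrays, beside 5.77% of all clusters in either direction. Against 1 Hz, 12 of 12 were lower (median −0.58) and 7 at the threshold, or 4 to 10, beside 8.65%. Of 6 endothelial markers 1 was lower at the threshold against TC, or 0 to 2 in either direction without single arrays. The part of these shifts in the Cdkn1b values was not tested.

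Cdkn2b, the INK4 gene induced by transforming growth factor beta in epithelial cells, had differences of opposite sign with ST and with NCXI on ST, neither of which passed the test. Its log2 values were 6.82, 6.48 and 7.06 in static control, 6.46, 6.52 and 6.36 in ST, and 6.57, 6.64 and 7.30 in ST with NCXI. The 3 ST arrays lay close together and below all others of the experiment but 1 control array. ST stood at −0.34 from control (SE 0.21, interval −0.81 to 0.14, limma adjusted p = 0.778). ST with NCXI stood 0.39 above ST (SE 0.21, interval −0.09 to 0.87, limma adjusted p = 0.604), with no overlap, as for 15.2% of all clusters in that comparison. Replicate 3 of ST with NCXI, at 7.30, carried much of it, since the difference was 0.16 without it.

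Paced cells held Cdkn2b at 6.97, 7.28 and 6.78 at 1 Hz, 6.72, 7.27 and 6.92 in TC, and 6.76, 7.11 and 6.68 in TC with NCXI. The groups overlapped, and replicate 2 was the highest in each of the 3. Limma gave differences of −0.04 (interval −0.48 to 0.39) for TC and −0.12 (interval −0.55 to 0.31) for NCXI on TC. Cdkn2b lies beside Cdkn2a on chromosome 5. Mtap, the metabolic gene on the other side of that pair, was not analysed here.

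Cdkn2c, the INK4 gene for p18, was lower with NCXI on ST at the study threshold and not after adjustment. Its log2 values were 7.59, 7.09 and 6.98 in static control, 7.58, 7.65 and 6.79 in ST, and 6.86, 6.72 and 6.55 in ST with NCXI. Only ST replicate 3 came down to the range of the inhibitor group, which otherwise lay below both others. ST with NCXI stood at −0.63 from ST (SE 0.25, interval −1.19 to −0.08, limma adjusted p = 0.453), a level 0.644 times that of ST. It was the 1 of 4 members at the study threshold in that comparison, where 9.13% of clusters were. The call was lost without ST replicate 1 (−0.51), ST replicate 2 (−0.48), ST with NCXI replicate 2 (−0.64) or ST with NCXI replicate 3 (−0.55). Against static control the difference was −0.51 (SE 0.25, limma adjusted p = 0.513), with all 3 arrays below the controls. Groups failed to overlap, in either direction, for 16.8% of all clusters there. ST and control, which differed by 0.12 (interval −0.43 to 0.68), could not be told apart.

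Markers of other cell types also differed in the same arrays, most of all those of macrophages and leukocytes by the count of calls. The mean of these 12 genes was 6.19 to 7.69 in ST and 5.37 to 6.17 in ST with NCXI, with 12 of 12 lower (median −1.33) and 9 lower at the study threshold, as were 4.52% of all clusters, or 5 without ST replicate 3. Fibroblast markers, 8.97 to 9.48 in ST and 9.03 to 9.09 in ST with NCXI, had lower means for 8 of 11 genes, with the collagen genes Col1a1 (−0.64) and Col1a2 (−0.62) lower and the proteoglycan gene Dcn (0.92) higher at the threshold. Of the other lists, 1 gene each was called, Tagln of 3 smooth muscle and pericyte markers at −0.52, Tek of 6 endothelial markers at −0.43 and Tnni3 of 7 cardiomyocyte markers at 0.29. Without single arrays the count ran from 0 to 1 for smooth muscle and pericyte markers and from 0 to 2 for cardiomyocyte markers. The part of these cells in the Cdkn2c difference was not tested.

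In paced cells Cdkn2c spread widely between replicates. It stood at 6.59, 7.08 and 6.98 at 1 Hz, at 6.03, 7.27 and 6.53 in TC, and at 5.88, 7.06 and 6.65 in TC with NCXI. Replicate 1 was the lowest and replicate 2 the highest in each group. The differences of −0.27 for TC (SE 0.36, interval −1.09 to 0.55) and −0.08 for NCXI on TC (interval −0.90 to 0.74) were smaller than that spread. The main model does not take off the part of the spread that same-numbered arrays share. Paired by replicate number, TC with NCXI minus TC was −0.15, −0.21 and 0.11 for replicates 1, 2 and 3. The NCXI effect on ST differed from that on TC by −0.55 (SE 0.47, limma over 18 arrays, adjusted p = 0.931).

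Cdkn3 stood at 9.30, 8.48 and 8.30 in static control, at 9.55, 9.01 and 8.43 in ST, and at 8.79, 8.77 and 8.26 in ST with NCXI. Replicate 1 was the highest and replicate 3 the lowest in each stretch group, and all groups overlapped. At 1 Hz the values were 8.10, 8.93 and 8.67, in TC 7.75, 8.86 and 8.36, and in TC with NCXI 7.93, 8.80 and 8.51. Here replicate 1 was the lowest and replicate 2 the highest in each group, as for Cdkn2c. The group means gave 0.30 for ST, −0.39 for NCXI on ST, −0.24 for TC and 0.09 for NCXI on TC, without a test because the cluster's name came from a list selected on these contrasts. The standard deviations within groups were 0.30 to 0.56. Where the replicate numbers pair the samples, ST minus control was 0.25, 0.53 and 0.12 for replicates 1, 2 and 3, and TC with NCXI minus TC was 0.18, −0.06 and 0.15. The same selection bears on the signs of these pairs, which are therefore no separate support. Leaving out 1 array gave 0.02 to 0.60 in ST, −0.67 to −0.11 for NCXI on ST, −0.51 to 0.04 in TC and −0.20 to 0.36 for NCXI on TC, so that the sign turned in the last 2 of these.

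**Figure D2:**
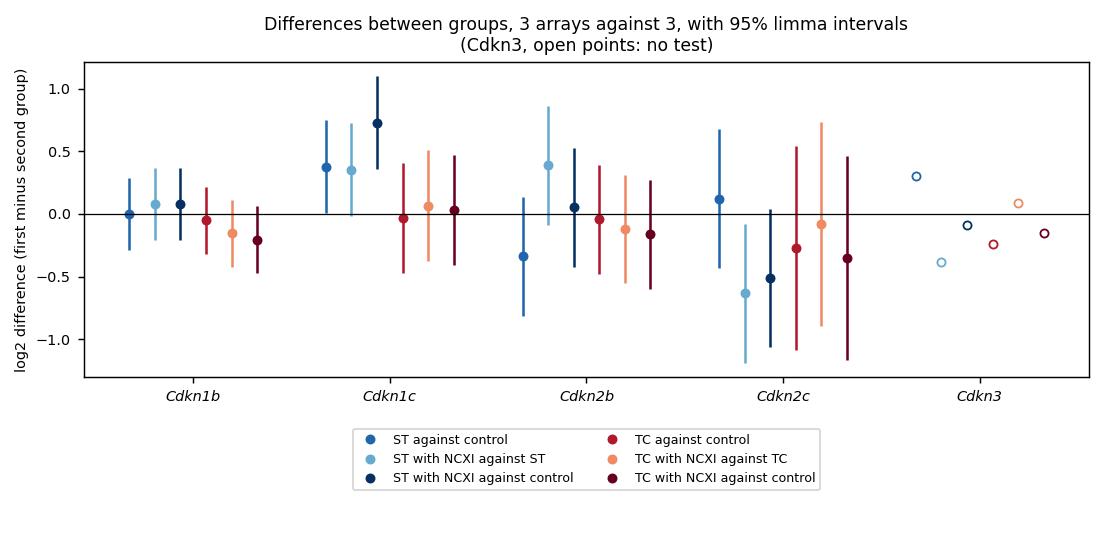
Differences between groups on the log2 scale (vertical axis, first group minus second) for the 5 inhibitors in 6 comparisons of 3 arrays against 3. Points are differences and lines are 95% limma intervals, and Cdkn3, drawn with open points, has no test. The intervals of Cdkn1c in ST and in ST with NCXI against control and of Cdkn2c with NCXI on ST lie to 1 side of 0, and every tachycardia interval crosses 0.

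After 3 hours of TC, 0 of the 4 tested inhibitors reached the study threshold against 1 Hz, where 3.91% of clusters did, and their adjusted p was 1 by limma. At an unadjusted p under 0.05, as for 4.02% of clusters, the count was also 0, by limma and by the methods' t-test, and the largest difference was the −0.27 of Cdkn2c. NCXI on TC gave 0 of 4 as well, with 5.77% of clusters at the threshold, and TC with NCXI against 1 Hz gave 0 of 4 beside 8.65%. The tests of ST against TC effects and of NCXI effects between the experiments also called 0 of 4 members, beside 6.02% and 6.13% of clusters. With 3 arrays per group, the intervals above still allow changes of Cdkn2c in TC from 1.09 lower to 0.55 higher on the log2 scale.

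Between the 2 controls both Cip/Kip genes were at the study threshold, in opposite directions. Static cells held Cdkn1b 0.48 above cells at 1 Hz (SE 0.12, interval 0.23 to 0.73, limma over 18 arrays, adjusted p = 0.0497), or 1.39-fold, with 9.46 to 9.73 against 8.92 to 9.26 and no overlap. Cdkn1c stood 0.64 lower in static cells, at −0.64 (SE 0.19, interval −1.04 to −0.25, limma adjusted p = 0.0894), with 6.72 to 7.33 against 7.45 to 7.80, again without overlap. These were 2 of the 4 tested members at the study threshold, in a comparison that called 13.6% of all clusters, with 20.2% not overlapping and 2.16% at an adjusted p under 0.05. The INK4 genes overlapped, Cdkn2b at −0.23 (interval −0.67 to 0.22) and Cdkn2c at 0.34 (interval −0.36 to 1.04). Pacing, duration and culture surface all differ between these groups and cannot be told apart. The mean of the 7 cardiomyocyte markers, 10.85 to 11.36 in static cells and 11.38 to 11.58 at 1 Hz, was lower for 7 of 7 genes (median −0.20), 2 at the threshold. The mean of 11 fibroblast markers, 8.69 to 9.41 against 9.51 to 9.69, did not overlap either, with 8 lower (median −0.26) and 3 at the threshold. Of 3 smooth muscle and pericyte markers 1 was lower at the threshold (median −0.52), as was 1 of 6 endothelial markers, and of 12 macrophage and leukocyte markers 2 were higher and 2 lower (median −0.63). Without single arrays the smooth muscle and pericyte count ran from 0 to 2. The part of these markers in either difference was not tested.

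The order of group means placed the 3 stretch groups above the 3 tachycardia groups for Cdkn1b, from 9.67 in ST with NCXI to 8.91 in TC with NCXI. No neighbours in that order from 1 experiment passed the test, although TC and TC with NCXI did not overlap. For Cdkn1c the order ran from 7.69 in ST with NCXI through 7.64, 7.61 and 7.58 in the tachycardia groups to 7.34 in ST and 6.97 in static control. The first 4 of these differed by less than their standard deviations of 0.13 to 0.39. Cdkn2c was highest in ST, at 7.34, and lowest in TC with NCXI, at 6.53. Cdkn2b was highest at 1 Hz, at 7.01, and lowest in ST, at 6.45.

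Cdkn1c lies on chromosome 1 in an imprinted cluster, between Kcnq1, a potassium channel gene, and Slc22a18, an organic cation transporter gene, with Phlda2 next to the latter. Both of these genes were lower in static cells too, Slc22a18 by −0.95 (SE 0.19, limma adjusted p = 0.0182) and Kcnq1 by −0.78 (SE 0.20, adjusted p = 0.0545). Phlda2, a placental growth regulator, differed by 0.15 (SE 0.12, limma adjusted p = 0.632). H19, the imprinted long RNA, stood at −1.07 (SE 0.41, adjusted p = 0.217), and Dlk1, a Notch-like membrane protein gene of another imprinted cluster, at 0.53 (SE 0.14, adjusted p = 0.0644). Of 9 imprinted growth genes measured out of 15 listed, 3 were lower (6.15% of all clusters) and 1 higher at the threshold, with a median of 0.02 against 0.01 for all clusters. In ST with NCXI against static control, where Cdkn1c was at 0.73, 1 of these 9 genes was at the threshold, Dlk1 at −0.47 (SE 0.16, limma adjusted p = 0.333), a share near the 10.2% of all clusters.

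**Figure D3:**
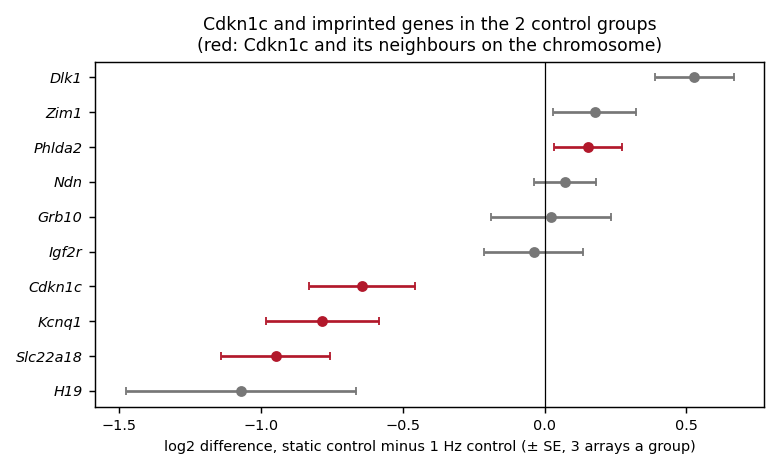
Log2 difference between static control and 1 Hz control (horizontal axis, static minus 1 Hz, with its SE, 3 arrays in each group) for Cdkn1c and 9 imprinted genes. Red points are Cdkn1c and its neighbours on the chromosome, of which Kcnq1, Slc22a18 and Cdkn1c lie below 0 and Phlda2 at 0.15.

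Genes of the machinery that CDK inhibitors act on were read from lists chosen by role, with earlier results of these arrays known. In ST, 2 of 8 measured cyclin and CDK genes were higher at the study threshold, as were 3.12% of all clusters, both E-type cyclins that start S phase with CDK2, namely Ccne2 at 0.53 (SE 0.20, limma adjusted p = 0.559) and Ccne1 at 0.30 (SE 0.11, adjusted p = 0.567). Of 20 S phase and mitosis genes 2 were higher, the replication helicase subunits Mcm4 at 0.55 (SE 0.17, adjusted p = 0.499) and Mcm6 at 0.58 (SE 0.23, adjusted p = 0.597). All 20 had higher means, with a median of 0.33 beside −0.0049 over all clusters. With the replicate number as a block, since it pairs the ST and control samples, 6 of the 8 and 13 of the 20 genes were at the threshold, where the block called 9.49% of all clusters. Without ST control replicate 1 the counts were 6 and 9, and without ST replicate 3 the S phase and mitosis count was 6. Each was 1 without ST control replicate 2 or 3 or ST replicate 1 or 2. Ccna2, Ccnb1 and Cdk1, which drive S phase and mitosis, stood at 0.43, 0.32 and 0.41 and missed the threshold.

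With NCXI on ST, 5 of the 8 cyclin and CDK genes were lower at the threshold, as were 4.52% of all clusters. Ccnb1, the mitotic cyclin, stood at −0.86 (SE 0.21, limma adjusted p = 0.234), Cdk1 at −0.77 (SE 0.23, adjusted p = 0.316), Ccne1 at −0.59 (SE 0.11, adjusted p = 0.145) and Ccna2 at −0.87 (SE 0.27, adjusted p = 0.361). Among S phase and mitosis genes 10 of 20 were lower, or 5 without ST replicate 1 or ST with NCXI replicate 3 and 16 without ST replicate 3, including Mcm6 at −0.80, the mitotic kinase gene Aurkb at −0.70 and Foxm1, a transcription factor of mitotic genes, at −0.72. All 20 had lower means, with a median of −0.62 beside 0.01 over all clusters, and Cdkn2c stood at −0.63. Dtl, part of a ubiquitin ligase that degrades the protein of Cdkn1a, was lower at −0.90 (SE 0.26, adjusted p = 0.316). Cdk4, a kinase that INK4 proteins bind, stood at 0.25 (SE 0.11, adjusted p = 0.543). No gene named in this paragraph had an adjusted p under 0.145. These 2 comparisons share the ST arrays, so their opposite signs are not separate observations.

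A list of p53 and its target genes and a list of transcription regulators of the inhibitors were read in the same way. In ST, 5 of 17 measured genes of the p53 list were lower (4.33% of all clusters) and 0 higher. The lower count was 2 without ST control replicate 2 and 3 without ST replicate 1. Among the 5 were Sesn2 at −0.80 (SE 0.17, limma adjusted p = 0.287) and Gadd45a at −0.83 (SE 0.21, adjusted p = 0.394), both also induced by amino acid and other stress. Of 21 transcription regulators 1 was higher and 2 lower at the threshold, beside 7.45% of all clusters in either direction. Myc, which represses Cdkn1a, Cdkn2b and other inhibitor genes, stood at −1.18 (SE 0.23, limma adjusted p = 0.25). Ets2, an activator of Cdkn2a in human fibroblasts, was at −0.46 (SE 0.15, limma adjusted p = 0.494). Zbtb17, the partner of Myc in that repression, was at 0.33 (SE 0.14, limma adjusted p = 0.609). With NCXI on ST, 1 of the 21 was higher and 2 lower at the threshold, beside 9.13% of all clusters in either direction. Hes1, a repressor of Cdkn1b in the mouse, was at 0.55 (SE 0.16, limma adjusted p = 0.316). Id1, an inhibitor of helix-loop-helix factors, was at −0.45 (SE 0.16, limma adjusted p = 0.398). Ezh2, the Polycomb methyltransferase of the Cdkn2a locus, was at −0.38 (SE 0.15, limma adjusted p = 0.447). In TC, 0 of the genes in any pathway list reached the threshold, which 3.91% of all clusters did. The count was 5 with the replicate block, 3 without TC control replicate 2, 2 without TC control replicate 1 or TC replicate 1 or 2, and 1 without TC replicate 3. With NCXI on TC, 3 of the 21 were higher and 2 lower at the threshold, beside 5.77% of all clusters in either direction. Those with the smallest p were Id1 at −0.75 (SE 0.13, limma adjusted p = 0.544) and Mxd1, an antagonist of Myc, at 0.74 (SE 0.18, limma adjusted p = 0.583). Klf4, an activator of Cdkn1a, was at 0.35 (SE 0.11) and Tbx3, a repressor of Cdkn2a, at 0.61 (SE 0.21). No cluster of that comparison had a limma adjusted p under 0.338, and no tested inhibitor was called. With the replicate block, 5 of the 20 S phase and mitosis genes were at the threshold for NCXI on TC in place of 2, where it called 7.86% of all clusters. Between the 2 controls Rb1, the pocket protein that CDKs inactivate, stood 0.43 higher in static cells (SE 0.10, limma adjusted p = 0.0333). It was the 1 called of 5 measured pocket protein and E2F genes, where 13.6% of all clusters were at the threshold. Of the p53 list 5 of 17 genes were higher and 1 lower there, and of the 21 transcription regulators 3 were higher and 2 lower. Of 9 genes for ubiquitin ligases of the inhibitors 2 were higher, while 0 of 8 cyclin and CDK genes were called.

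Across the 18 arrays, after the mean of each experiment was taken off, the members separated by how they varied with S phase and mitosis genes. These are descriptions over arrays that share groups and replicate numbers, and they carry no test. Cdkn2c and Cdkn3 had a Pearson r of 0.872 with each other, and 0.912 when group means were taken off instead. Cdkn2c correlated with the 20 S phase and mitosis genes at a median r of 0.76 (0.497 to 0.89) and Cdkn3 at 0.792 (0.417 to 0.95). Cdkn1b ran the other way, at a median of −0.537 (−0.708 to 0.0266), and at −0.685 with Cdkn3. Cdkn1c and Cdkn2b had medians of −0.25 and −0.139. With some lists of cell type markers Cdkn1c had values of larger size. Its median r was 0.635 with the 7 cardiomyocyte markers (−0.0463 to 0.742). With the 12 macrophage and leukocyte markers it was −0.467 (−0.675 to −0.288). With the 3 smooth muscle and pericyte markers it was 0.531 (−0.165 to 0.532), and with the 11 fibroblast markers 0.104. Cdkn2c and Cdkn3 varied with the fibroblast markers too, at medians of 0.413 (−0.336 to 0.814) and 0.436 (−0.438 to 0.726). The part of cell types in these correlations was not tested.

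Much of this pattern lay between replicates of the same group. The mean of the 20 S phase and mitosis genes was 7.77, 7.28 and 7.16 in the static control arrays, 8.07, 7.77 and 7.40 in ST, and 7.35, 7.29 and 6.91 in ST with NCXI, so that replicate 1 was the highest and replicate 3 the lowest each time, as for Cdkn3. In the tachycardia arrays it was 7.08, 7.54 and 7.45 at 1 Hz, 6.91, 7.57 and 7.30 in TC, and 6.88, 7.34 and 7.22 in TC with NCXI. Replicate 1 was the lowest and replicate 2 the highest each time, as for Cdkn2c and Cdkn3. Cdkn1b ran the other way in the stretch groups, with replicate 1 the lowest and replicate 3 the highest in each. In each tachycardia group replicate 2 was the lowest for Cdkn1b, while the highest was replicate 1 at 1 Hz and in TC and replicate 3 in TC with NCXI.

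**Figure D4:**
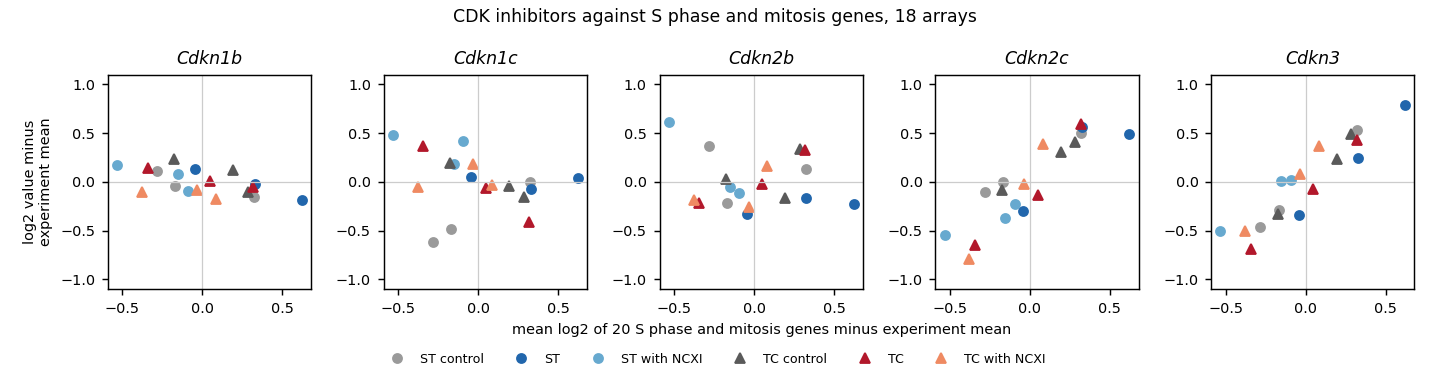
Each inhibitor's log2 value (vertical axis) against the mean log2 value of 20 S phase and mitosis genes (horizontal axis), both minus the mean of their experiment, on 18 arrays. Circles are stretch arrays and triangles tachycardia arrays, and Cdkn2c and Cdkn3 climb from lower left to upper right while Cdkn1b slopes slightly down.

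Among 8728 named genes with a mean above the median cluster, those most like Cdkn2c across the 18 arrays were the centrosome gene Cdk5rap2 (r = 0.924), the spindle assembly factor Tpx2 (0.908) and Plk4, the kinase of centriole duplication (0.908). Those most like Cdkn3 were Prc1, which bundles the microtubules of the midzone (0.95), the actin regulator Cap1 (0.947) and Plk4 (0.94). For Cdkn1b they were the phosphatase gene Ctdsp1 (0.857) and the mitochondrial protein genes Bola1 (0.855) and Fam210a (0.855). The gene that ran most against each member was looked up after the values were seen. For Cdkn1b it was Cks2 (r = −0.921), a small subunit of CDK complexes. The values were of similar size for Tbc1d1 with Cdkn1c (−0.924) and Cisd1 with Cdkn3 (−0.92). They were smaller for Gjd2 with Cdkn2c (−0.856) and Ppp1r3d with Cdkn2b (−0.766). For Cdkn1c the most alike were Nap1l5, an imprinted gene in the mouse (0.885), the cytochrome Cyp2d1 (0.88) and the squalene synthase Fdft1 (0.867), and for Cdkn2b the interferon-induced Ifit3 (0.867), the zinc finger gene Zfp787 (0.864) and the phosphodiesterase Pde7b (0.86).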

How the data were processed

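RNA of 18 samples was hybridized to Rat Gene 2.0 ST arrays. Pre-processing and filtering were done by the authors in Partek Genomics Suite, and the deposited values are log2 signals of 36685 transcript clusters. The summarisation and normalisation method and the genome build are not given in the sources used here. Array values carry no counting depth, and their number limits the precision. The values were used as deposited, with limma 3.58.1 in R 4.3.3 (lmFit, contrasts, eBayes) over the 9 arrays of an experiment, or all 18 for comparisons between experiments, with Benjamini-Hochberg adjustment over all clusters. The study names a 2-way ANOVA for the arrays without its factors, so the replicate number was not in the main model. The scripts were tested on simulated data.

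Clusters were named from the platform annotation through 1 symbol, and the brightest cluster stood for a gene. Members and lists were chosen with earlier results of these data known. Apart from the members, up to 4 genes per list and comparison with the smallest p at the threshold were to be named, the 3 genes most like each member, and cell cycle regulators picked by name. Same-numbered arrays deviated together from their group means at an r over 0.1 in all 3 pairs for ST and control (0.124 to 0.295) and for TC with NCXI and TC (0.13 to 0.252), so the replicate numbers pair these samples. In the other comparisons within an experiment at least 1 pair lay below 0.1. For ST with NCXI and ST, and for TC and control, all 6 arrays still correlated best with the array of their own number. For ST with NCXI and control, and for TC with NCXI and control, 4 arrays did. The main tests of these comparisons thus leave out a pairing that may hold in part.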

Additional observations from a re-analysis of the deposited data

How the results depend on the processing

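The number of inhibitors at the study threshold was recomputed under every alternative. With the replicate block, that is with the replicate number as a paired factor, it was 1 in ST against control as before, 2 in ST with NCXI against ST (Cdkn1c joined, adjusted p = 0.398), 2 in ST with NCXI against control (Cdkn2c joined, adjusted p = 0.258), and 2 instead of 0 for the NCXI effect on ST against that on TC (Cdkn2b 0.51, adjusted p = 0.525, and Cdkn2c −0.55, adjusted p = 0.536). The block changed no other call of a member. It moved the pathway genes at the threshold from 12 to 28 in ST, 20 to 31 for NCXI on ST, 11 to 23 for ST with NCXI against control, 0 to 5 in TC, 11 to 17 for NCXI on TC, 14 to 30 for TC with NCXI against control, 7 to 27 for ST against TC effects and 7 to 26 for NCXI effects. No paired analysis was possible for the 2 controls because they belong to separate experiments, and the ANOVA with replicate number was left out there too.

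The count of 1 in ST, Cdkn1c, was 0 with all 18 arrays in 1 model, with only the groups compared, with the methods' t-test, with the ANOVA, at 1.5-fold and at an adjusted p under 0.05. The count of 1 for NCXI on ST was 0 with all 18 arrays and at an adjusted p under 0.05, and 2 with only the groups compared and over clusters with 1 symbol, while the methods' t-test called Cdkn1c in place of Cdkn2c. ST with NCXI against control gave 2 with only the groups compared and 0 at an adjusted p under 0.05. The 2 controls gave 1 at 1.5-fold and 1 at an adjusted p under 0.05. In all of these the cause was not tested. Leaving out single arrays gave member counts of 0 to 1 in ST, for NCXI on ST, for TC with NCXI against control and for ST against TC effects. Pathway counts then ran from 6 to 24 in ST, 14 to 29 for NCXI on ST, 9 to 11 for ST with NCXI against control, 0 to 3 in TC, 7 to 12 for NCXI on TC, 9 to 16 for TC with NCXI against control, 5 to 15 for ST against TC effects, 4 to 15 for NCXI effects and 13 to 23 between the controls.

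Among the 4 tested inhibitors, every sign that turned belonged to a difference not called, and only when 1 array was left out. Cdkn1b ranged from −0.0766 to 0.0829 in ST, −0.00071 to 0.16 for NCXI on ST, −0.144 to 0.0227 in TC and −0.0259 to 0.146 for ST against TC effects. Cdkn1c ranged from −0.23 to 0.16 in TC, −0.12 to 0.27 for NCXI on TC and −0.0452 to 0.130 for TC with NCXI against control. Cdkn2b ranged from −0.18 to 0.19 for ST with NCXI against control, −0.191 to 0.0937 in TC and −0.25 to 0.0289 for NCXI on TC, and Cdkn2c from −0.032 to 0.398 in ST, −0.60 to 0.0191 in TC and −0.37 to 0.25 for NCXI on TC. Cdkn3, which was not tested, ranged from −0.51 to 0.0445 in TC, −0.196 to 0.359 for NCXI on TC, −0.282 to 0.216 for ST with NCXI against control, −0.382 to 0.0887 for TC with NCXI against control and −0.175 to 0.324 between the controls. The mean of all clusters of a member gave the same values, since each had 1. Trend and robust options, quantile normalization and leaving out the dimmest clusters changed no member's call. With group means taken off, 1 of the 3 genes most like Cdkn1b was still among its first 20.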
